A study of Homo sapiens with 10 samples.

Results

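1,20(OH)2D3 is a vitamin D3 derivative with a hydroxyl group on the A ring and another in the side chain, and its effect on the transcriptome of WM164 cells, an established human metastatic melanoma line, was read from 4 of the 10 RNA-seq libraries of the series. These were the 2 libraries of cells given 1,20(OH)2D3 and the 2 of cells given the ethanol vehicle. Under each treatment 1 library was labelled as VDR knockout, described by the study as a knockdown and here called VDR-KD, and the other as wild type with a scrambled infection, here VDR-WT. The cells received 100 nM of the compound, or 0.1% ethanol, for 24 h in medium with charcoal-treated serum. The other 6 libraries, with 1,25(OH)2D3, 20(OH)D3 or 25(OH)D3 at the same dose and time in both genotypes, gave the spread and 2 comparisons between related compounds. Each condition was 1 library. The study's notes mention triplicates, but the sources used here do not say whether RNA was pooled. A p-value here therefore reflects how much treatment differences varied between single libraries of the 2 genotypes. That variation can be technical, or a real difference in response between the labelled genotypes.

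Of the 54826 entries of the expression table, 13123 had a mean of at least 1 FPKM (fragments per kilobase of transcript, scaled to library size) in the 4 libraries and were tested. Of these, 10259 carried the name of 1 protein-coding gene. The low values of single-exon genes moved in steps that place the 10 libraries at about 10300000 to 11200000 fragments each, so that 1 FPKM of a transcript of 2 kb stands for about 18.7 to 20.2 fragments. The libraries carried the markers of melanoma cells. The summed level of 9 melanoma lineage markers was between 5807 and 9363 FPKM, against at most 12.1 FPKM for 7 keratinocyte, 4.48 for 6 leukocyte and 22.8 for 6 endothelial markers. The 6 fibroblast markers summed to 75.9 to 135 FPKM, nearly all of it LUM, which encodes the matrix proteoglycan lumican. VDR, the gene targeted in the VDR-KD cells, was not lower in them. Its level was 13.2 FPKM in the 1,20(OH)2D3 library labelled VDR-KD and 6.75 FPKM in that labelled VDR-WT, and 13.6 and 9.63 FPKM in the ethanol libraries. Over all 10 libraries it was 12 to 14.8 FPKM under the VDR-KD label and 5.54 to 9.63 FPKM under the VDR-WT label. The ranges did not overlap, and the RNA was higher under the knockdown label, opposite to a loss of RNA. VDR protein was not measured in these libraries. Genotypes are therefore named below as labels only.

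The active hormone 1,25(OH)2D3 binds the vitamin D receptor VDR, which pairs with a retinoid X receptor and binds DNA at paired half-sites, the DR3 element, near target genes such as CYP24A1, the mitochondrial enzyme that degrades vitamin D hormones. 20(OH)D3 is made from vitamin D3 by CYP11A1 and lacks the hydroxyl on the A ring that 1,20(OH)2D3 carries. 1,25(OH)2D3 carries the A-ring hydroxyl but has its side-chain hydroxyl on another carbon. In melanocytes and melanoma cells MITF is the master regulator of the pigment genes.

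Against ethanol, 1,20(OH)2D3 raised 2 genes and lowered 2 entries past the adjusted threshold. PRSS33, a secreted serine protease, and PI15, a secreted inhibitor of trypsin-like proteases, rose. VGF, the precursor of secreted neuropeptides, fell, and so did the pseudogene entry HMGN1P38. The test was limma on log2(FPKM + 0.1) over all 10 libraries, with treatment and genotype as terms, and p-values were adjusted over the 13123 entries by Benjamini-Hochberg. The called entries were 0.0152% of those tested in each direction, and at an unadjusted p under 0.05 there were 1052 higher entries, 8.02% of all, and 679 lower ones, 5.17%.

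PRSS33 lies on chromosome 16 (GRCh38, chr16:2783953-2787948). Its level was 6.18 FPKM in the library labelled VDR-KD and 7.71 FPKM in that labelled VDR-WT with 1,20(OH)2D3, against 0.887 and 1.37 FPKM with ethanol. Both treated libraries stood above both ethanol libraries and above all 4 libraries with 20(OH)D3 or 25(OH)D3, which lay between 1.18 and 2.17 FPKM. The ratio to ethanol was 6.97 and 5.61 in the 2 genotypes. The log2 difference averaged 2.54 (SE 0.21, 95% interval 2.06 to 3.01, adjusted p = 0.00689, limma). The call was kept without any 1 of the 4 libraries with 20(OH)D3 or 25(OH)D3. It was lost without either ethanol library, either 1,20(OH)2D3 library or either 1,25(OH)2D3 library, where the log2 difference was 2.44 to 2.63 and the adjusted p 0.0547 to 0.208.

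RefSeq gives PRSS33 2 start sites on the reverse strand of GRCh38.p14, and both promoter windows, 250 bases before to 50 after the start, are shown because this gene changed most among the called protein-coding genes. Capitals mark half-sites of the VDR type, which were taken as AGGTCA and its variants with a first base of G (written GGGTCA), with T as the third base (written AGTTCA), or with both of these (written GGTTCA), on either strand.
PRSS33, chr16:2787866-2788165: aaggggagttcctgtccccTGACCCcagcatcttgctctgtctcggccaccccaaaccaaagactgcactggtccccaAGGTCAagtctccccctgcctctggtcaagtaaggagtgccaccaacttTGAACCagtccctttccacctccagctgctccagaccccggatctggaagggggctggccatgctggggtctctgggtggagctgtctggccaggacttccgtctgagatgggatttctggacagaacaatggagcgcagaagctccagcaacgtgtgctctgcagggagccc
PRSS33, chr16:2787511-2787810: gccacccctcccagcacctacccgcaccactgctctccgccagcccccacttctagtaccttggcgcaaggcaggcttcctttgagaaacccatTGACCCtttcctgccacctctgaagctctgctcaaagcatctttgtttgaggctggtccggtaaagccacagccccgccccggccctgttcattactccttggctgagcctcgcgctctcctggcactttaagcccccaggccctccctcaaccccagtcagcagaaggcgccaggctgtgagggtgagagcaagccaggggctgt
The first window holds 3 half-sites and the second 1, and 38.6% of the 35116 promoter windows of that length hold at least 1. Neither holds a DR3 element, 2 half-sites in the same direction with 3 bases between them, which 0.074% of all windows hold. These letters are a description of the windows, not binding sites.

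PI15 (entry listed at chr8:74599775-74866939) had 64.6 FPKM in the library labelled VDR-KD and 58.2 FPKM in that labelled VDR-WT with 1,20(OH)2D3, against 17.2 and 19.4 FPKM with ethanol. The 4 libraries with 20(OH)D3 or 25(OH)D3 held 13.3 to 21.7 FPKM, so the treated pair stood apart from all 6 of these. The ratio to ethanol was 3.77 and 2.99. The log2 difference averaged 1.74 (SE 0.18, 95% interval 1.32 to 2.16, adjusted p = 0.0343, limma). It stayed past the threshold without either 20(OH)D3 library and was lost without any of the other 8, with log2 differences of 1.61 to 1.87 and adjusted p-values of 0.0779 to 0.534.

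VGF (chr7:101162509-101165593) responds rapidly to growth factors in neurons and was abundant in these cells. Its level was 622 FPKM in the library labelled VDR-KD and 428 FPKM in that labelled VDR-WT with 1,20(OH)2D3, against 1024 and 959 FPKM with ethanol. The fall was 0.94 on the log2 scale (log2 difference -0.94, SE 0.10, adjusted p = 0.0411, limma). VGF also held 619 and 533 FPKM with 20(OH)D3 and 579 and 531 FPKM with 25(OH)D3, so the ethanol libraries were the highest of all and those with 1,20(OH)2D3 overlapped with the other 2 compounds. Against the mean of ethanol, 20(OH)D3 and 25(OH)D3 the log2 difference was -0.40 (adjusted p = 0.237, limma), and without any 1 of the 10 libraries the adjusted p was 0.0876 to 0.275.

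The promoter window of VGF, on the reverse strand, is shown because it holds a cAMP response element. Capitals mark that element (TGACGTCA, in 1.85% of windows) and 1 half-site of the VDR type, GGGTCA on the other strand.
VGF, chr7:101165520-101165819: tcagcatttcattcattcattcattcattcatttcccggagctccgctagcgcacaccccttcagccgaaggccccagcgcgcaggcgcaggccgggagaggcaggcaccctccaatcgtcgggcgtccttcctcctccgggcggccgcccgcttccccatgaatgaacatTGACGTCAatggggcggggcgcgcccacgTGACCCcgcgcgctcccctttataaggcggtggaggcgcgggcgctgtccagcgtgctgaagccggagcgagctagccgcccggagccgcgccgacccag

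The pseudogene entry HMGN1P38 was listed at 0 in both 1,20(OH)2D3 libraries, against 2.51 FPKM in the ethanol library labelled VDR-KD and 3.47 FPKM in that labelled VDR-WT (adjusted p = 0.00689, limma). In the other 6 libraries it held 1.65 to 3.16 FPKM. It belongs to a family of many near-identical copies, so its reads cannot be placed with certainty, and a listed 0 can be a failed estimate. No fold is given.

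**Figure D1:**
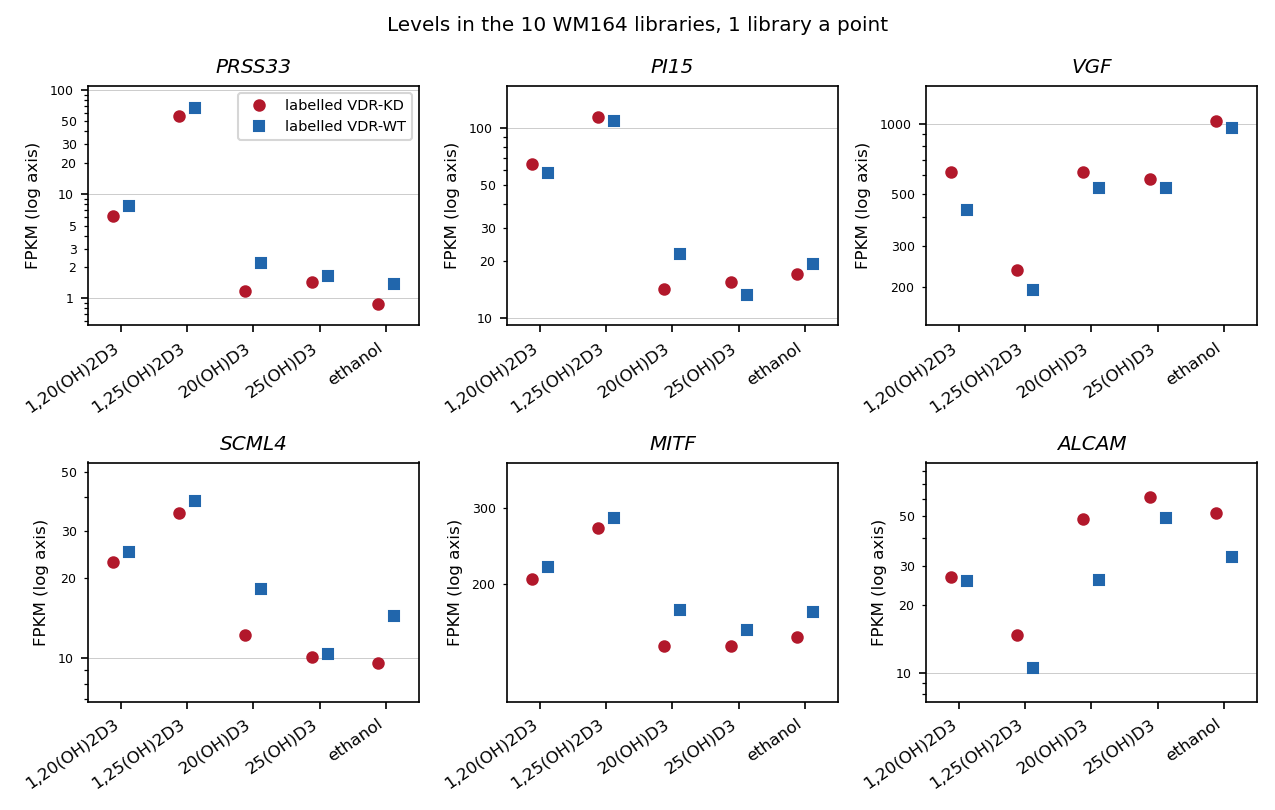
FPKM (log axis) of 6 genes in the 10 libraries, 1 point a library, circles for the VDR-KD label and squares for the VDR-WT label, with 1,20(OH)2D3 at the left and ethanol at the right of each panel. PRSS33 and PI15 are high with 1,20(OH)2D3 and higher still with 1,25(OH)2D3, and VGF is highest in the 2 ethanol libraries, at 1024 and 959 FPKM.

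CYP24A1 did not pass the filter. It was at 0.49 FPKM in the library labelled VDR-KD and 0.505 FPKM in that labelled VDR-WT with 1,20(OH)2D3, against 0.452 and 0.0777 FPKM with ethanol. At this depth such levels rest on few fragments, and the treated and ethanol libraries under the VDR-KD label were nearly equal. Under the VDR-WT label the ratio to ethanol was 6.51. CYP24A1 held 0.0441 and 0.187 FPKM with 20(OH)D3 and was listed at 0 in both 25(OH)D3 libraries. Both treated libraries thus lay above all of the libraries with ethanol, 20(OH)D3 or 25(OH)D3. With 1,25(OH)2D3 the same gene held 77.3 and 56.8 FPKM. In the fit with no filter on low values the log2 difference of 1,20(OH)2D3 against ethanol was 0.93 (95% interval -0.57 to 2.44, adjusted p = 0.601, limma). Against 20(OH)D3 it was 1.555 (95% interval 0.05 to 3.06, adjusted p = 0.814, limma). Against 1,25(OH)2D3 it was -6.79 (95% interval -8.30 to -5.29, adjusted p = 0.0386, limma).

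Among 24 genes listed as VDR targets, 12 were tested, none passed the adjusted test, and SEMA3B alone had an unadjusted p under 0.05. At that threshold 8.02% of all entries were higher and 5.17% lower. The median log2 difference of these 12 was -0.05, against 0.0081 for all entries. SEMA3B, a secreted semaphorin, held 9.74 FPKM in the library labelled VDR-KD and 10.1 FPKM in that labelled VDR-WT with 1,20(OH)2D3, against 6.39 and 7.15 FPKM with ethanol (log2 difference 0.55, SE 0.15, adjusted p = 0.236, limma). Its treated libraries did not overlap with ethanol, 20(OH)D3 or 25(OH)D3, which together held 5.21 to 7.15 FPKM. The largest other differences on the list were in CDKN1A, a cell cycle inhibitor (-0.54), DUSP10, a phosphatase of stress kinases (-0.39), and IGFBP3, a binder of insulin-like growth factors (-0.34), with adjusted p-values of 0.395 to 0.624. VDR itself differed from ethanol by -0.28 on the log2 scale (95% interval -0.79 to 0.23, adjusted p = 0.632, limma). RXRG, a retinoid X receptor, was the 1 of 15 genes for VDR, its partners and its coregulators with an unadjusted p under 0.05 (log2 difference 0.50, SE 0.15, adjusted p = 0.244), beside the same shares of all entries. It held 8.32 and 7.81 FPKM with 1,20(OH)2D3 and was also high with 20(OH)D3, at 10.6 and 7.28 FPKM.

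Over 2-fold differences in the same direction in both genotypes were scarce. There were 26 higher entries, 0.198% of those tested, and 65 lower ones, 0.495%, while 50 entries differed over 2-fold in opposite directions. Within each genotype, where no replicate exists, 249 entries were over 2-fold higher and 333 lower under the VDR-KD label, and 220 higher and 320 lower under the VDR-WT label. By any amount, 29.5% of entries were higher and 27.1% lower in both. Over the 8176 protein-coding genes that averaged 5 FPKM or more in the 4 libraries, the 2 log2 differences had a Pearson r of 0.156 across genes, which is a description over genes that are not independent, and the 2 pairs share no library. Of the 26 and 65 entries, 6 and 19 had 1 protein-coding name.

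Above 2 FPKM, 4 protein-coding genes were over 2-fold higher in both genotypes. Besides PRSS33 and PI15 these were IFNA16 and MAST1. IFNA16, an interferon alpha gene with close relatives beside it that could share reads, held 3.38 FPKM in the library labelled VDR-KD and 3.67 FPKM in that labelled VDR-WT with 1,20(OH)2D3, against 0.865 and 1.17 FPKM with ethanol (log2 difference 1.71, SE 0.34, adjusted p = 0.172, limma). MAST1, a microtubule-associated kinase, held 6.69 and 3.32 FPKM with 1,20(OH)2D3, against 2.35 and 1.41 FPKM with ethanol, but also 3.43 and 4.53 FPKM with 20(OH)D3. Both IFNA16 values lay above all 6 libraries with ethanol, 20(OH)D3 or 25(OH)D3, whereas those of MAST1 overlapped with 20(OH)D3. With 1,25(OH)2D3 IFNA16 held 28.6 and 23.1 FPKM, and MAST1 4.39 and 7.93 FPKM. IFNA16 was lower with 1,20(OH)2D3 than with 1,25(OH)2D3 (log2 difference -2.83, adjusted p = 0.0174, limma).

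The genes with the smallest p-values after PRSS33 and PI15 differed less. Their differences were alike in both genotypes, which a choice by small p-value favours. The fit takes its spread from how treatment differences varied between the genotype labels. ZNF114, a zinc finger protein, held 21.7 and 6.30 FPKM with 1,20(OH)2D3 in the libraries labelled VDR-KD and VDR-WT, against 9.64 and 3.39 FPKM with ethanol (log2 difference 1.02, SE 0.14, adjusted p = 0.147, limma). YWHAQ, a 14-3-3 adaptor protein, held 386 and 369 FPKM, against 253 and 274 FPKM with ethanol, a log2 difference of 0.52 (SE 0.08). IFI27L2 (0.75, SE 0.11) and RPS29, a ribosomal protein gene with pseudogene copies (0.61, SE 0.09), were also high with 20(OH)D3, at 42.4 and 44.0 FPKM and at 961 and 963 FPKM. With 1,25(OH)2D3 ZNF114 held 28.4 and 7.52 FPKM and YWHAQ 389 and 408 FPKM. IFI27L2 held 43.5 and 35.9 FPKM and RPS29 755 and 872 FPKM with that compound. SCML4, a Polycomb-family protein chosen after its values were seen, held 22.9 and 24.9 FPKM, against 9.53 and 14.3 FPKM with ethanol (log2 difference 1.02, SE 0.16, adjusted p = 0.15).

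Among the smallest p-values on the lower side, SLC7A11, the cystine importer that feeds glutathione synthesis, held 26.6 FPKM in the library labelled VDR-KD and 26.0 FPKM in that labelled VDR-WT with 1,20(OH)2D3, against 46.6 and 48.4 FPKM with ethanol (log2 difference -0.85, SE 0.13, adjusted p = 0.15, limma). With 20(OH)D3 it held 31.6 and 26.3 FPKM, so its ethanol libraries were the ones that stood highest. NNMT, which methylates nicotinamide, held 57.6 and 78.5 FPKM with 1,20(OH)2D3, against 101 and 114 FPKM with ethanol, and 106 and 118 FPKM with 20(OH)D3 (log2 difference from ethanol -0.67, SE 0.10, adjusted p = 0.15). KYNU, an enzyme of tryptophan breakdown, held 17.5 and 19.6 FPKM, against 38.7 and 38.1 FPKM with ethanol (log2 difference -1.05, SE 0.18, adjusted p = 0.172). CEMIP, which is needed to degrade hyaluronan, held 3.07 and 6.97 FPKM, against 10.0 and 16.5 FPKM with ethanol (log2 difference -1.46, SE 0.25, adjusted p = 0.172). PAQR3, a Golgi protein that holds RAF kinases, differed by -0.54 (SE 0.10). With 1,25(OH)2D3 SLC7A11 held 20.0 and 24.5 FPKM, NNMT 37.5 and 47.5, KYNU 9.81 and 14.5, and CEMIP 2.49 and 7.83 FPKM. PAQR3 held 19.4 and 16.7 FPKM with that compound.

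**Figure D2:**
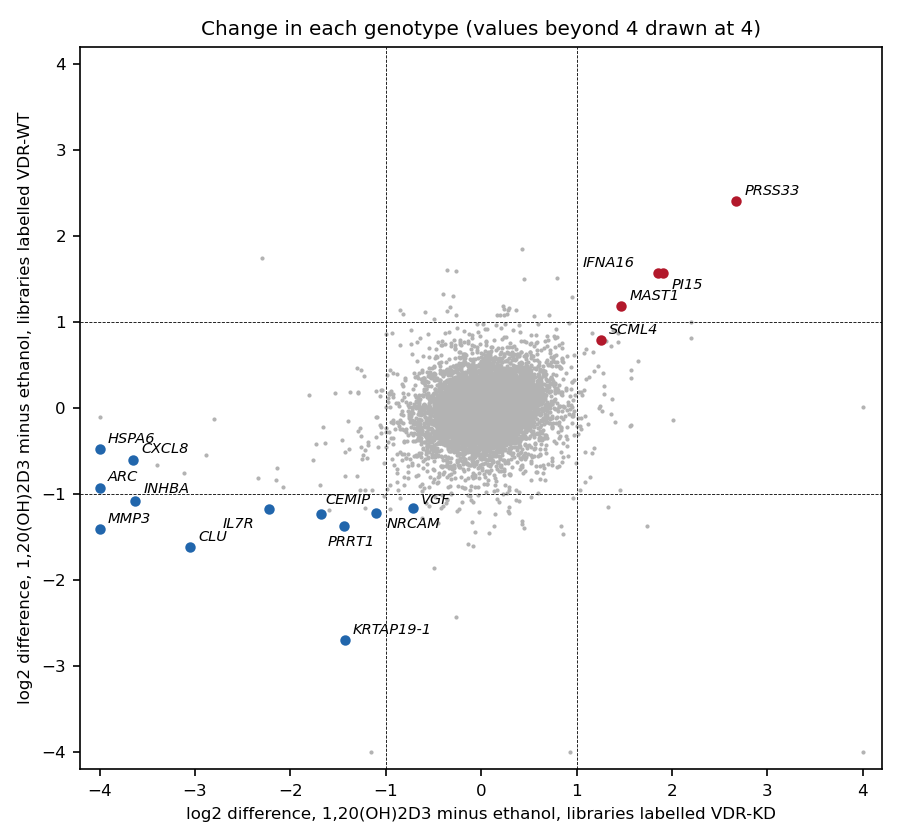
Log2 difference of 1,20(OH)2D3 minus ethanol in the libraries labelled VDR-KD (horizontal) and VDR-WT (vertical) for the 9576 protein-coding genes averaging 2 FPKM or more in the 4 libraries, 1 point a gene, with dashed lines at 2-fold. PRSS33, PI15, IFNA16 and MAST1 lie beyond both upper lines, and over the 8176 genes of 5 FPKM or more the 2 differences had an r of 0.156.

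On the lower side, 12 protein-coding genes above 2 FPKM were over 2-fold lower in both genotypes. They included INHBA, an activin subunit, MMP3, a matrix metalloproteinase, LIF, a cytokine, CLU, the chaperone clusterin, IL7R, a cytokine receptor, CEMIP, and the neuronal surface proteins NRCAM and DNER, besides KRTAP19-1, KIAA1217 and PRRT1. None passed the adjusted test, with adjusted p-values of 0.172 to 0.390. CLU held 6.64 FPKM in the library labelled VDR-KD and 14.8 FPKM in that labelled VDR-WT with 1,20(OH)2D3, against 55.6 and 45.7 FPKM with ethanol (log2 difference -2.33, SE 0.63). It also held 63.5 and 11.9 FPKM with 20(OH)D3, so the low level was shared with the 20(OH)D3 library labelled VDR-WT. That library was also lower than its VDR-KD counterpart in INHBA (0.322 against 7.21 FPKM) and KRTAP19-1 (1.03 against 19.0 FPKM). The same held for IL7R (1.99 against 7.29), LIF (1.24 against 5.41), DNER (2.48 against 13.2) and KIAA1217 (1.54 against 3.75). The reverse held for CEMIP (7.49 against 5.49), PRRT1 (2.67 against 2.46) and NRCAM. NRCAM, at 1.34 and 2.25 FPKM against 2.99 and 5.38 FPKM with ethanol, was not low with 20(OH)D3 (3.20 and 5.04 FPKM). It was lower still with 1,25(OH)2D3 (0.638 and 1.49 FPKM).

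Stress and immediate early genes, and several of the lower genes with MMP3 among them, differed widely between libraries of the same treatment. HSPA6, a heat-inducible chaperone, held 0.468 FPKM in the 1,20(OH)2D3 library labelled VDR-KD and 6.71 FPKM in that labelled VDR-WT, against 32.3 and 9.37 FPKM with ethanol. It was also low in both 1,25(OH)2D3 libraries (0.72 and 0.176 FPKM) and in the 20(OH)D3 library labelled VDR-WT (0.655 FPKM), but not in the 20(OH)D3 library labelled VDR-KD (31.6 FPKM). HSPA1A, the major inducible chaperone, held 16.6 and 28.7 FPKM with 1,20(OH)2D3, against 123 and 42.1 FPKM with ethanol. JUN, a subunit of the AP-1 transcription factor, held 2.66 and 4.62 FPKM, against 13.8 and 8.17 FPKM with ethanol, and 12.5 and 2.19 FPKM with 20(OH)D3. MMP3 followed the same libraries, listed at 0 and at 2.84 FPKM with 1,20(OH)2D3, against 9.38 and 7.70 FPKM with ethanol, and 10.3 and 0.797 FPKM with 20(OH)D3. The 1,20(OH)2D3 library labelled VDR-KD was thus lower in HSPA6, HSPA1A, JUN and MMP3 than the one labelled VDR-WT. The part of this library pattern in the lower genes was not tested. Without the 1,20(OH)2D3 library labelled VDR-KD and the 20(OH)D3 library labelled VDR-WT, an alternative chosen after seeing the data, 1 entry passed the test against ethanol in place of 4, a small RNA pseudogene.

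**Figure D3:**
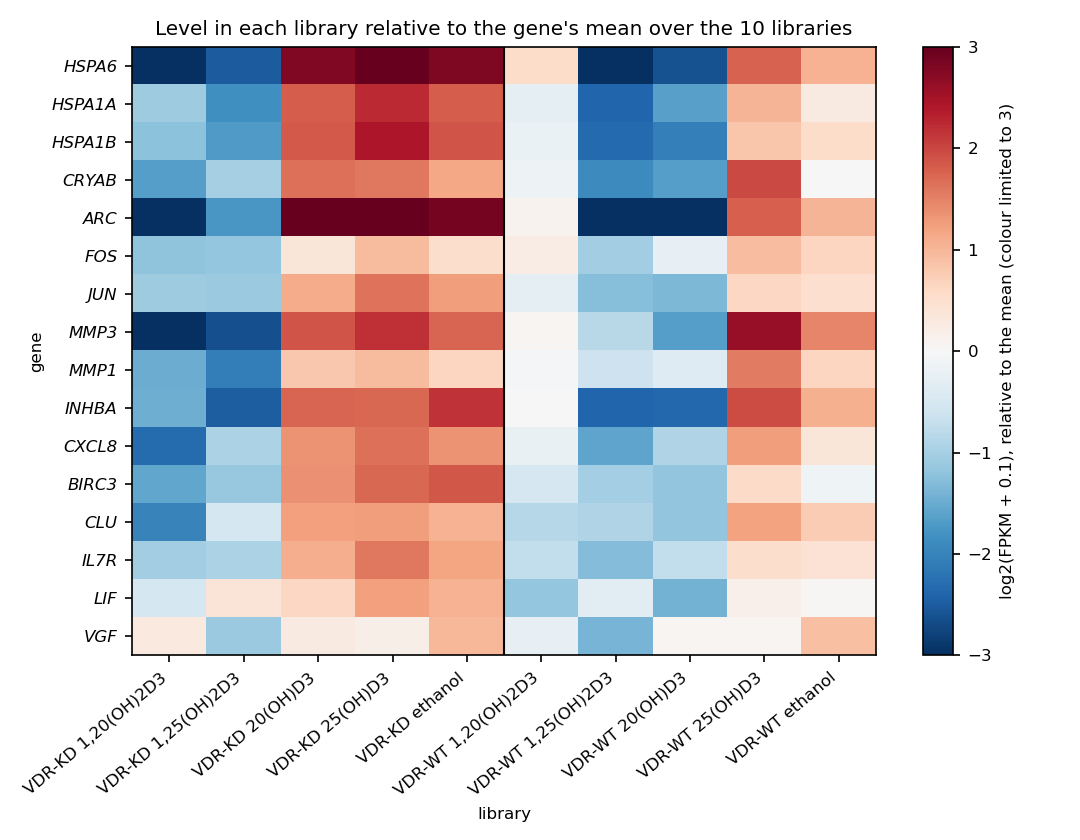
Level of 16 genes in the 10 libraries, as log2(FPKM + 0.1) relative to the gene's mean over the libraries, with the VDR-KD label at the left and the VDR-WT label at the right and 1,20(OH)2D3 leftmost in each. HSPA6, ARC, JUN and MMP3 are low in the 1,20(OH)2D3 library labelled VDR-KD, in both 1,25(OH)2D3 libraries and in the 20(OH)D3 library labelled VDR-WT, and nearer the mean in the 1,20(OH)2D3 library labelled VDR-WT.

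The immediate early list had 16 tested members, of which VGF fell past the adjusted test and FOS and NR4A2 were lower at an unadjusted p under 0.05, with none higher (median log2 difference -0.32). For this and the lists below, 5.17% of all entries were lower and 8.02% higher at that threshold. FOS, the AP-1 partner of JUN, held 5.81 and 15.8 FPKM with 1,20(OH)2D3 in the libraries labelled VDR-KD and VDR-WT, against 19.6 and 21.1 FPKM with ethanol. ARC, a synaptic immediate early gene, held 0.269 and 3.15 FPKM, against 21.9 and 6.07 FPKM with ethanol (log2 difference -3.41, SE 1.65, adjusted p = 0.416). Of 10 tested NF-kB targets 4 were lower at an unadjusted p under 0.05, the chemokines CXCL8 and CCL20, the apoptosis inhibitor BIRC3 and the feedback inhibitor TNFAIP3. CXCL8 held 0.922 and 4.18 FPKM, against 12.7 and 6.39 FPKM with ethanol. Without the 1,20(OH)2D3 library labelled VDR-KD, 1 of the 16 immediate early and none of the 10 NF-kB genes were lower at that threshold, beside 3.97% of all entries. Without the ethanol library labelled VDR-KD, 1 gene of each list was, beside 3.47%. The heat shock list held differences in both directions. Of its 16 members 5 were higher at an unadjusted p under 0.05, among them HSPB1, a small chaperone (log2 difference 0.63, SE 0.13), and HSPA8, the constitutive member of the HSP70 family (0.32, SE 0.13), while the stress-inducible HSPA6, HSPA1A, HSPA1B and CRYAB had differences of -3.15 to -1.46 that did not reach it. With quantile normalization 2 of the 16 were higher and 1 lower. The higher ones were 2 without the 1,20(OH)2D3 library labelled VDR-KD and 1 without the ethanol library labelled VDR-KD, and without the 1,20(OH)2D3 library labelled VDR-WT 3 were higher and 4 lower.

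Most tested genes of the melanocyte lineage lay on the higher side, none of them past the adjusted test. Among all entries 8.02% were higher and 5.17% lower at an unadjusted p under 0.05. Of 14 tested genes for pigment synthesis and the melanosome, 9 were higher at an unadjusted p under 0.05 and none lower, with a median log2 difference of 0.26, and of 8 tested lineage markers, 4 of them on both lists, 7 were higher (median 0.34). The medians were 0.40 and 0.45 under the VDR-KD label and 0.11 and 0.25 under the VDR-WT label. With quantile normalization 5 of 14 and 3 of 8 were higher at that threshold, with medians of 0.10 and 0.17, and none lower. MITF held 205 FPKM in the library labelled VDR-KD and 219 FPKM in that labelled VDR-WT with 1,20(OH)2D3, against 150 and 172 FPKM with ethanol (log2 difference 0.40, SE 0.08, adjusted p = 0.172, limma). TRPM1, a melanocyte ion channel under MITF, held 47.4 and 36.9 FPKM, against 25.5 and 27.7 FPKM with ethanol (0.65, SE 0.13, adjusted p = 0.172). S100B, a marker of neural crest and melanoma cells, held 115 and 98.9 FPKM, against 68.2 and 65.8 FPKM with ethanol (0.67, SE 0.11, adjusted p = 0.172). For MITF, TRPM1 and S100B both treated libraries stood above all 6 libraries with ethanol, 20(OH)D3 or 25(OH)D3, the highest of which were 174, 29.9 and 87.8 FPKM. With 1,25(OH)2D3 MITF was higher still, at 269 and 284 FPKM, and so was TRPM1, at 82.1 and 75.3 FPKM. For TRPM1 the difference between these compounds passed the adjusted test (1,20(OH)2D3 minus 1,25(OH)2D3 -0.91, adjusted p = 0.0357, limma). MLANA, a melanosome protein, averaged a log2 difference of 0.39 (SE 0.11), PMEL, the fibril protein of melanosomes, 0.33 (SE 0.11), and TYR, the rate-limiting enzyme of melanin synthesis, 0.18 (SE 0.08). OCA2, also on the pigment list, went the other way (log2 difference -0.49, SE 0.35). It held 1.07 and 3.73 FPKM, against 1.63 and 5.02 FPKM with ethanol. Under both labels 10 pigment genes were higher and 1 lower, and 7 lineage markers were higher and 1 lower. Without the 1,20(OH)2D3 library labelled VDR-KD, 3 of 14 pigment genes and 3 of 8 lineage markers were higher at that threshold, beside 4.97% of all entries. Without the ethanol library labelled VDR-KD these were 2 of 14 and 3 of 8, beside 4.33%.

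Genes of melanoma dedifferentiation and invasion lay the other way. Among all entries 5.17% were lower and 8.02% higher at an unadjusted p under 0.05. Of 17 tested, 5 were lower at an unadjusted p under 0.05 and none higher, and the median log2 difference was -0.19. They included JUN, ALCAM, an adhesion molecule, SERPINE2, a protease inhibitor, and SNAI2, a transcription factor of neural crest migration that was named after its values were seen. ALCAM held 26.7 FPKM in the library labelled VDR-KD and 25.7 FPKM in that labelled VDR-WT with 1,20(OH)2D3, against 51.5 and 32.9 FPKM with ethanol (log2 difference -0.65, SE 0.18, adjusted p = 0.236, limma). The 20(OH)D3 library labelled VDR-WT, at 26.0 FPKM, overlapped with them. With 1,25(OH)2D3 ALCAM was lower still, at 14.8 and 10.5 FPKM. SNAI2 held 30.7 and 50.1 FPKM, against 38.7 and 81.3 FPKM with ethanol, which overlap across the genotype labels (log2 difference -0.52, SE 0.17). Without the 1,20(OH)2D3 library labelled VDR-KD none of the 17 was lower at that threshold, beside 3.97% of all entries, and 5 were without the one labelled VDR-WT, beside 4.96%. Without the ethanol library labelled VDR-KD 1 was lower, beside 3.47%, and without that labelled VDR-WT 2 were, beside 4.47%.

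Metabolic genes lay on the higher side too, and none passed the adjusted test. Of 22 tested genes of cholesterol synthesis, 13 were higher at an unadjusted p under 0.05 and none lower, with a median log2 difference of 0.38. The shares of all entries at that threshold were 8.02% higher and 5.17% lower. MSMO1, a sterol oxidase, held 57.5 and 32.3 FPKM with 1,20(OH)2D3 in the libraries labelled VDR-KD and VDR-WT, against 33.0 and 22.2 FPKM with ethanol (log2 difference 0.67, SE 0.12, adjusted p = 0.172, limma). HMGCS1, an early enzyme of the pathway, held 40.9 and 32.0 FPKM, against 28.1 and 21.0 FPKM with ethanol (0.57, SE 0.13), and INSIG1, the sterol-sensing regulator, 115 and 58.5 FPKM, against 82.5 and 41.8 FPKM (0.48, SE 0.10). DHCR7, which turns the vitamin D precursor into cholesterol, held 219 and 114 FPKM, against 141 and 93.0 FPKM (0.46, SE 0.14, adjusted p = 0.245). Of 23 tested glycolysis and hypoxia genes, 11 were higher and none lower (median 0.29). LDHA, lactate dehydrogenase, held 1651 and 2044 FPKM, against 1341 and 1480 FPKM with ethanol (0.38, SE 0.07), and BNIP3, a mitophagy receptor induced in hypoxia, 62.9 and 97.5 FPKM, against 45.8 and 71.6 FPKM (0.45, SE 0.09). With quantile normalization 12 of the 22 were higher and none lower (median 0.35), and 7 of the 23 were higher and 1 lower (median 0.14). Without the 1,20(OH)2D3 library labelled VDR-KD 8 of the 22 and 7 of the 23 were higher, and without the ethanol library labelled VDR-KD 8 and 6. Without the ethanol library labelled VDR-WT 12 and 17 were, beside 8.16% of all entries. In MSMO1 and LDHA the ethanol library was the lowest of its 5 under each genotype label. MSMO1 held 44.9 and 30.4 FPKM with 20(OH)D3 and 52.1 and 25.9 FPKM with 25(OH)D3, and LDHA 1611 and 1883 FPKM with 20(OH)D3. Against 20(OH)D3, 1 of the 22 cholesterol genes was higher and 1 lower, and none of the 23 glycolysis genes passed in either direction, beside 4.72% higher and 2.83% lower among all entries. Of all entries with an unadjusted p under 0.05 in that comparison 62.6% were higher, against 52.1% with median-centred libraries.

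No gene on the cell division lists passed the adjusted test against ethanol. At an unadjusted p under 0.05, 8.02% of all entries were higher and 5.17% lower. Of 20 tested genes of mitosis 6 were higher at that threshold and none lower, with a median log2 difference of 0.16. PLK1, a mitotic kinase, led them (0.37, SE 0.10). Without the 1,20(OH)2D3 library labelled VDR-KD 2 of the 20 were higher, and without the ethanol library labelled VDR-WT 3 were higher and 1 lower. Of 18 tested replication genes, MCM5 of the replicative helicase alone was higher (0.33, SE 0.10; median 0.05). CDC20, PLK1 and KIF20A were at least as high with 20(OH)D3 in the library labelled VDR-WT, at 116, 79.9 and 79.6 FPKM, as with 1,20(OH)2D3 in it, at 99.7, 67.6 and 68.4 FPKM. Of 15 tested interferon response genes none had an unadjusted p under 0.05, and none of the 6 tested genes of the aryl hydrocarbon receptor AhR had one. CYP1A1, the main AhR target, held 3.22 and 3.05 FPKM with 1,20(OH)2D3, against 2.37 and 7.75 FPKM with ethanol. Among 7 tested LXR genes SCD, a fatty acid desaturase, was the one higher (0.48, SE 0.09, adjusted p = 0.172), and among 12 tested genes of ROR and PPAR receptors CPT1A, the gate of mitochondrial fatty acid oxidation, was the one lower (-0.73, SE 0.24, adjusted p = 0.276).

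**Figure D4:**
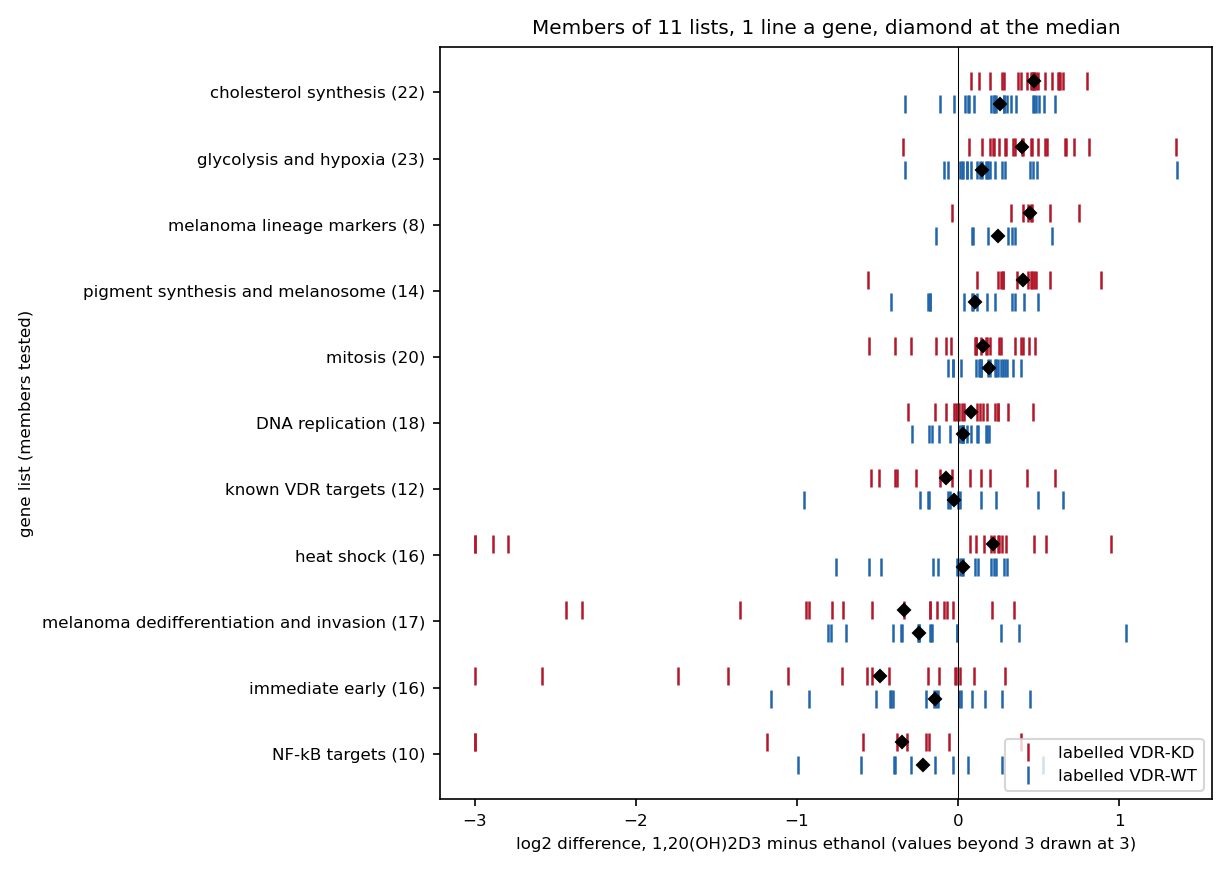
Log2 difference of 1,20(OH)2D3 minus ethanol for each tested member of 11 gene lists, 1 line a gene, upper row for the libraries labelled VDR-KD and lower row for those labelled VDR-WT, with the median as a diamond. Cholesterol, glycolysis, lineage and pigment genes lie mostly right of 0 under both labels, and the long left tails of the heat shock, dedifferentiation and immediate early lists belong to the VDR-KD label.

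The difference in response between the genotype labels was tested as an interaction in a fit with 2 residual degrees of freedom. No entry passed (0% of 13123, limma), and 977 had an unadjusted p under 0.05. PRSS33 differed by 0.27 (SE 0.47, adjusted p = 0.917), PI15 by 0.33 (SE 0.44, adjusted p = 0.877) and VGF by 0.44 (SE 0.14, adjusted p = 0.660) on the log2 scale, VDR-KD minus VDR-WT. These genes were called by a fit whose spread comes from differences between the labels, so that choice favoured similar responses in both. For that reason, and with few residual degrees of freedom, no conclusion on equal responses is drawn.

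Compared with 20(OH)D3 at the same dose and time, 1,20(OH)2D3 gave 3 higher genes (0.0229% of entries) and 1 lower entry (0.00762%), HMGN1P38 again. PRSS33 was higher by 2.04 on the log2 scale (95% interval 1.56 to 2.51, adjusted p = 0.0274, limma), with 6.18 and 7.71 FPKM against 1.18 and 2.17 FPKM with 20(OH)D3. PI15 was higher by 1.79 (1.38 to 2.21, adjusted p = 0.0274), with 64.6 and 58.2 FPKM against 14.3 and 21.7 FPKM. PLB1, a phospholipase (chr2:28457145-28664540), was higher by 1.37 (1.03 to 1.71, adjusted p = 0.0345), with 11.3 and 8.63 FPKM against 3.82 and 3.72 FPKM with 20(OH)D3. Its ethanol libraries lay between, at 6.81 and 5.35 FPKM, and the difference from ethanol was 0.70 (SE 0.15, adjusted p = 0.172). In VGF the 2 compounds differed by -0.15 (95% interval -0.39 to 0.09, adjusted p = 0.784). MITF differed by 0.43 and TRPM1 by 0.49 in this comparison, neither past the adjusted test. At an unadjusted p under 0.05, 4 of the 14 pigment genes were higher, beside 4.72% of all entries. Leaving out any 1 library gave 0 to 2 called entries in place of 4.

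Compared with 1,25(OH)2D3, 9 entries were higher (0.0686%) and 35 lower (0.267%) with 1,20(OH)2D3, and 34 of the 44 had 1 protein-coding name. The 44 calls compare with 4 against 20(OH)D3 and 4 against ethanol. At an unadjusted p under 0.05 the order was another, with 1367 entries against 1,25(OH)2D3, 991 against 20(OH)D3 and 1731 against ethanol, and the differences in these counts were not tested. PRSS33 held 6.18 and 7.71 FPKM with 1,20(OH)2D3, against 56.5 and 67.7 FPKM with 1,25(OH)2D3 (log2 difference -3.15, 95% interval -3.62 to -2.67, adjusted p = 0.00079, limma). SEMA3B held 9.74 and 10.1 FPKM, against 54.4 and 49.8 FPKM with 1,25(OH)2D3 (-2.38, -2.72 to -2.03, adjusted p = 0.00079). APPL2, an endosomal adaptor (-1.01, adjusted p = 0.0118), and EFL1, a GTPase of ribosome maturation (-1.49, adjusted p = 0.0174), were likewise lower than with 1,25(OH)2D3. Their levels with ethanol, 27.4 and 26.4 FPKM for APPL2 and 9.54 and 7.05 FPKM for EFL1, lay below 41.5 and 37.3 FPKM and 11.7 and 11.6 FPKM with 1,20(OH)2D3.

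Other genes of the 1,25(OH)2D3 libraries were near the ethanol level with 1,20(OH)2D3. TIMP3, a tissue inhibitor of metalloproteinases, held 249 and 168 FPKM with 1,20(OH)2D3 in the libraries labelled VDR-KD and VDR-WT, against 545 and 364 FPKM with 1,25(OH)2D3 (log2 difference -1.12, 95% interval -1.27 to -0.97, adjusted p = 0.00079), and 237 and 151 FPKM with ethanol. SPP1, the secreted phosphoprotein osteopontin, held 42.7 and 62.2 FPKM, against 185 and 181 FPKM with 1,25(OH)2D3 (-1.82, adjusted p = 0.00177), and 55.7 and 56.4 FPKM with ethanol. GDE1, a phosphodiesterase, held 27.8 and 25.8 FPKM, against 55.6 and 42.4 FPKM with 1,25(OH)2D3 (-0.85, adjusted p = 0.0174), and 27.4 and 24.0 FPKM with ethanol. The intervals of 1,20(OH)2D3 minus ethanol were -0.04 to 0.27 for TIMP3, -0.43 to 0.19 for SPP1 and -0.16 to 0.29 for GDE1. PI15 differed less between the compounds. It held 64.6 and 58.2 FPKM with 1,20(OH)2D3, against 115 and 109 FPKM with 1,25(OH)2D3, a log2 difference of -0.87 (95% interval -1.28 to -0.45) that did not pass the adjusted test (adjusted p = 0.124). VGF was higher with 1,20(OH)2D3, at 622 and 428 FPKM, than with 1,25(OH)2D3, at 237 and 194 FPKM (1.27, adjusted p = 0.00307). Without 1 library at a time 5 to 38 entries were called in this comparison, with 13 or fewer when an ethanol, 1,20(OH)2D3 or 1,25(OH)2D3 library was left out.

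**Figure D5:**
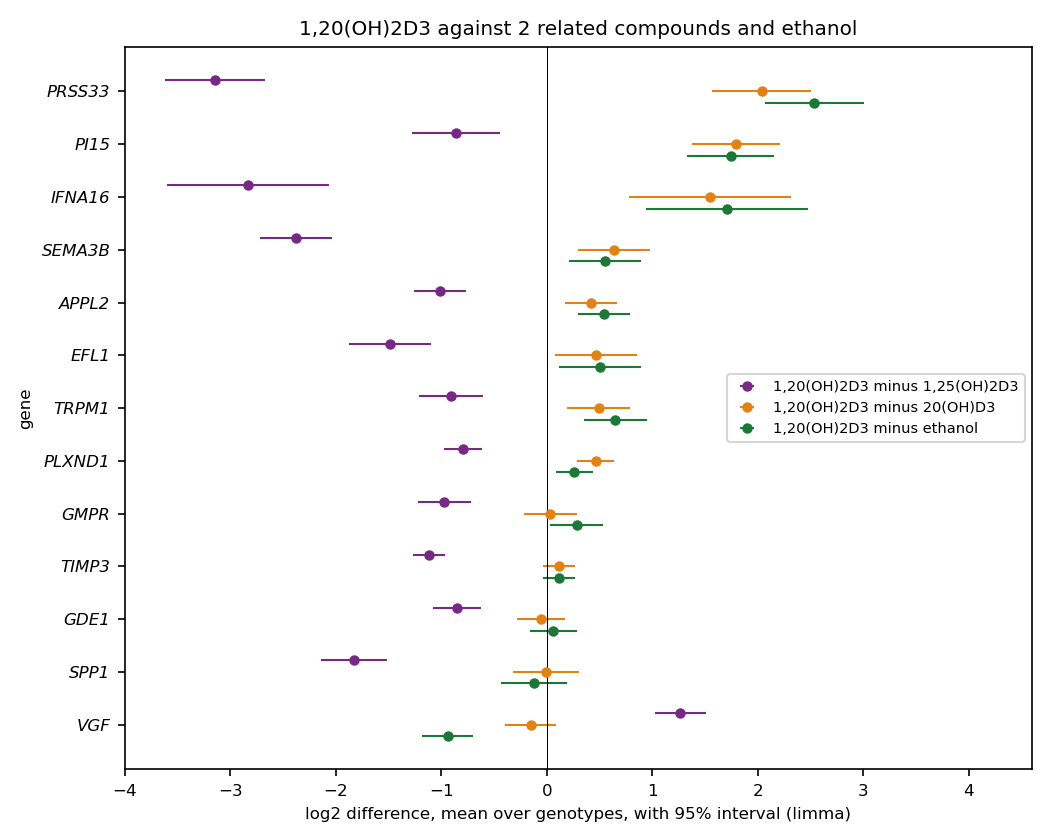
Log2 difference of 1,20(OH)2D3 from 1,25(OH)2D3, from 20(OH)D3 and from ethanol for 13 genes, as the mean over the 2 genotype labels with the 95% interval of the limma fit. PRSS33 and PI15 lie right of 0 against 20(OH)D3 and ethanol and left of 0 against 1,25(OH)2D3, and TIMP3, GDE1 and SPP1 lie near 0 except against 1,25(OH)2D3.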

How the data were processed

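WM164 cells were sequenced by RNA-seq in 10 libraries. Per the labels and the submitters' processing notes, the authors aligned reads with STAR 2.7.1a to GRCh38 and deposited FPKM per gene from Cufflinks 2.2.1 and Cuffdiff. Overlapping genes share an entry (2050 entries hold several names), and strand use in counting was not given in the sources used here. Positions given for genes are the spans listed for their entries and can be wider than the gene. Values were taken as log2(FPKM + 0.1), which understates changes of low genes, for entries with a mean of at least 1 FPKM in the 4 libraries. Models were fitted with limma 3.58.1 in R 4.3.3 with a mean-variance trend, on 4 residual degrees of freedom, and checked on simulated data. Groups came from sample titles. The members, the 29 gene lists and the rule for named genes (the genes past the adjusted test, the 12 largest changes over 2-fold in both genotypes and the 6 smallest p-values in each direction above 2 FPKM, the 10 smallest p-values against 1,25(OH)2D3, and up to 4 members of each list) were chosen with earlier results of these data known. Protein-coding names came from GENCODE 29 and RefSeq. Alternatives were another constant, filters, scalings, reference and libraries. Depth is an estimate from value steps, and 96.0 to 97.7% of low values of single-exon genes were whole within 0.05 fragments. Some genes are not reported here.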

Additional observations from a re-analysis of the deposited data

How the results depend on the processing

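Counts of calls depended on the settings, while PRSS33, PI15 and VGF kept their direction in all of those run. Against ethanol, 4 entries were called; 1 was with 1 added before the logarithm, 0 with no filter on low values, 2 with a mean of at least 5 FPKM, 2 without a variance trend, 1 without a genotype term, and 0 to 4 with 1 library left out, where an arm then holds 1 library that is assumed to vary like the rest. The entries called with 1 library left out were not always among the 4. Where that library was an ethanol or a 1,20(OH)2D3 library, any called entries were others. After seeing the data, 2 settings were added. The first left out the 1,20(OH)2D3 library labelled VDR-KD and the 20(OH)D3 library labelled VDR-WT, both low in heat shock genes. The 1,25(OH)2D3 libraries, low in these genes too, stayed in that fit. The second left out both 1,25(OH)2D3 libraries instead and gave 0. Against 20(OH)D3, where 4 were called, the same settings gave 2, 0, 1, 1, 1 and 0 to 2, and the 2 added ones 0 each. Against 1,25(OH)2D3, 44 became 14 with no filter, 5 without a trend, 4 without a genotype term and 5 to 38 with 1 library left out. The genotype difference, 0 calls, gave 9 with 1 added and 10 above 5 FPKM, small RNAs among them, both settings chosen after seeing the data. Over 2-fold in both genotypes, 91 entries became 32 with 1 added, 787 with no filter and 14 above 5 FPKM. PRSS33, at 2.54, kept 2.54 with no filter and without a genotype term but lost the call. It also lost the call at 2.52 in the first added setting and at 2.54 without 1,25(OH)2D3. Where it lost the call with 1 library left out, the log2 difference was 2.44 to 2.63. PI15 lost the call at 1.69 with 1 added, and at 1.74 with no filter, without a trend, without a genotype term and without 1,25(OH)2D3. It also lost the call at 1.69 in the first added setting. Where it lost the call with 1 library left out, the log2 difference was 1.61 to 1.87. The 4 libraries alone, paired by genotype label and with 1 residual degree of freedom, gave 6 calls, 5 of them higher, with PRSS33 (adjusted p = 0.0412, limma) and PI15 (adjusted p = 0.0115) among them but not VGF (-0.94, adjusted p = 0.0568) or HMGN1P38. Median centring, quantile scaling and robust moderation called 4 entries against ethanol each. Of entries at an unadjusted p under 0.05 against ethanol 60.8% were higher, against 52.2% with quantile scaling. At the low levels of CYP24A1 with 1,20(OH)2D3 and ethanol, a difference between those was not resolved (95% interval -0.57 to 2.44 with no filter). The part of depth in this was not tested.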
